A study of Mus musculus with 54 samples.

Results

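The 9 genes described here are the sirtuins Sirt1 to Sirt7, the NAD-producing enzyme gene Nampt and the NAD-degrading enzyme gene Cd38. They were taken by symbol from the gene tables of liver, kidney and quadriceps, where each has 1 row among 55471 genes, and all 9 passed the filter on low counts in all 3 tissues. Poly(A) RNA was sequenced from C57BL/6J mice of both sexes in 3 arms: mice labelled young, aged 50 weeks; mice labelled old, aged 130 weeks, on a control diet; and mice aged 130 weeks on a diet with corylin, a flavonoid of Psoralea corylifolia. The tests of corylin compare it with old mice of the same age. Each tissue, arm and sex had 3 libraries; the exception was male liver on corylin, with replicates 2 and 3 only, and replicate 1 was not analysed here. The 53 libraries came from 18 animals, named in the library names, and held 8687606 to 23190258 counts. The labels give no dose of corylin, no time of day of collection and no meaning for a letter in the library names (B in 41, R in 12 libraries). All young libraries carry B, and each of the 12 groups of old or corylin mice holds 1 library with R, so the letter is partly confounded with age; the R library is replicate 3 of its group in each case. Hepatocyte markers summed to 72256 to 141419 CPM (counts per 1000000) in liver, kidney tubule markers to 14634 to 42374 CPM in kidney and muscle fibre markers to 80779 to 163928 CPM in quadriceps, each in its labelled tissue.

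Sirtuins are enzymes that remove acetyl or other acyl groups from proteins and consume NAD in doing so, releasing nicotinamide. Nampt turns nicotinamide back towards NAD in the salvage pathway, and Cd38 is a membrane-bound NAD glycohydrolase found at high levels on several immune cells. Sirt1, Sirt6 and Sirt7 are mainly nuclear, Sirt2 is mainly cytosolic, and Sirt3, Sirt4 and Sirt5 are mitochondrial. Sirt3 is the main mitochondrial deacetylase, Sirt5 removes succinyl, malonyl and glutaryl groups, and Sirt7 acts in the nucleolus on ribosomal gene transcription and chromatin.

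The genes lie on mouse chromosomes 10 (Sirt1 at chr10:63319005-63381704, Sirt6 at chr10:81621785-81627797), 7 (Sirt2 at chr7:28766735-28788661, Sirt3 at chr7:140863666-140882309), 5 (Sirt4 at chr5:115478010-115484725, Cd38 at chr5:43868553-43912375), 13 (Sirt5 at chr13:43365496-43395203), 11 (Sirt7 at chr11:120618372-120625240) and 12 (Nampt at chr12:32819545-32853349) of GRCm38, per GENCODE M21. Some share exon bases with neighbours: Sirt3 shares 418 with Ric8a and 342 with Psmd13, both on the opposite strand, Sirt7 shares 124 with Mafg on its own strand, Sirt1 shares 65 with the antisense gene Gm16145, and Sirt2 shares 42 with Nfkbib. The strand setting of the authors' counting is not given in the sources used here, so a small part of the reads of these genes may belong to the neighbour. Start-site sequence is shown for Sirt7, which changed with age in 2 tissues, for Sirt5, which fell with it in liver, and for Nampt, whose promoter is known to be driven by the circadian clock. The windows are from RefSeq (GRCm38.p6; 250 bases before to 50 after the start), cut to the longest stretch that no GENCODE transcript annotates as UTR or coding. Capitals mark matches, on either strand, to CCGGAAG (ETS factors) or to the NRF1 motif, GCGC and TGCGC with any base between.
Sirt7 (chr11:120625015-120625116, minus strand): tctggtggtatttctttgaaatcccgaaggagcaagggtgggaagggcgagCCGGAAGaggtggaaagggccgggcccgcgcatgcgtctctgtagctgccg
Sirt5 (chr13:43365285-43365495, plus strand): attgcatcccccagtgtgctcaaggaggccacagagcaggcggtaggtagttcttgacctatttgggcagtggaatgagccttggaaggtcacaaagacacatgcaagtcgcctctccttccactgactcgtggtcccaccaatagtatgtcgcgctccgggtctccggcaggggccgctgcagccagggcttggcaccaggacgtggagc
Nampt (chr12:32820085-32820334, plus strand): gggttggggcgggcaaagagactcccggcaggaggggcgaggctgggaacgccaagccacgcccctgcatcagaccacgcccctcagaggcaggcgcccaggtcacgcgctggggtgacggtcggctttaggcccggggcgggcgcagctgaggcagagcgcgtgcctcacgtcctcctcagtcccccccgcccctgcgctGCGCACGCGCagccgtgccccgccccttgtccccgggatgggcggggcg
The full 300-base window of Sirt7 held CCGGAAG 2 times. Sirt3 and Sirt6 have more than 1 window each, with 1 match in 1 window and 0 in the other. Over all genes, 8.86% of 32851 windows hold it. The Sirt3 match is not printed because Psmd13 transcripts cover it. The NRF1 motif, present in 4.6% of windows, was found in Nampt and in 1 window of Sirt6, but not in the other Sirt6 window. The E-box CACGTG, present in 7.15% of windows, was found only in Sirt1, 2 times, and the D-box TTANGTAA, present in 2.32%, in none of the 9 genes. The Sirt5 window held no match to these 4 motifs. A match is a description of the letters in these windows.

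In young mice the 3 tissues differed most in Sirt3 and Sirt7, which were abundant in liver and kidney and low in quadriceps. On the authors' length-scaled TPM values, which were made for each tissue table separately, Nampt had the highest mean of the 9 genes in kidney (105 ± 22.8, SD, n = 6) and quadriceps (67.6 ± 15), and Sirt3 in liver (38.1 ± 3.72). In kidney, Nampt stood above Sirt3 (38.6 ± 2.26 TPM) without overlap, Sirt3 and Sirt2 (37.9 ± 3.41) overlapped, and Sirt7 (30.6 ± 1.92) and Sirt4 (20.4 ± 2.06) each stood apart from the next gene; Sirt1 (13.4), Sirt6 (8.12), Cd38 (6.48) and Sirt5 (5.49) overlapped neighbour by neighbour. In liver, Sirt3, Nampt (30.3 ± 7.10 TPM), Sirt2 (25.5 ± 1.63) and Sirt7 (25.3 ± 3.04) overlapped neighbour by neighbour and stood above Cd38 (10.1), Sirt4 (9.21), Sirt1 (6.94), Sirt5 (3.75) and Sirt6 (3.55). In quadriceps, Nampt and then Sirt2 (43.1 ± 2.34 TPM) stood apart from the rest, which ran from Sirt4 (9.97) through Sirt1 (7.53), Sirt3 (5.14), Sirt6 (3.89), Cd38 (3.81) and Sirt7 (3.03) to Sirt5 (2.64), each overlapping the next. The order therefore places the mitochondrial deacetylase gene Sirt3 first in liver and the fifth in quadriceps.

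**Figure D1:**
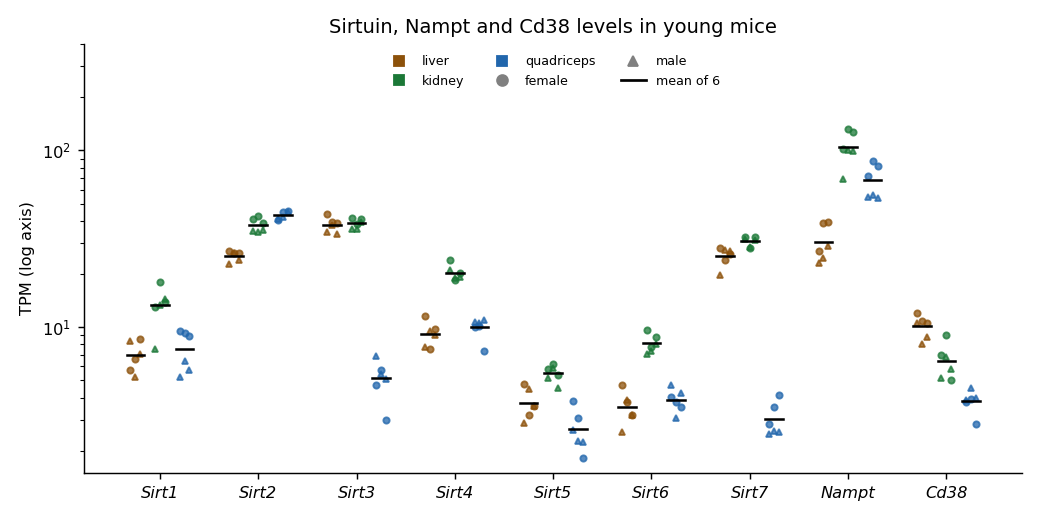
TPM (log axis) of each gene in the 6 young libraries of liver (brown), kidney (green) and quadriceps (blue); circles are females, triangles males, and the line is the mean of 6. Sirt3 and Sirt7 in quadriceps lie below every liver and kidney library, with means of 5.14 and 3.03 TPM against 38.1 and 25.3 in liver.

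The same comparison on raw counts used 1 joint fit of the 18 young libraries. The CPM range of Sirt7 was 49.4 to 69.5 for liver, 34.0 to 49.6 for kidney and 6.62 to 10.2 for quadriceps. Liver and kidney met at the edges of their ranges, and every quadriceps library lay far below both. Sirt7 was higher in liver than in quadriceps by 3.08 ± 0.12 (log2 difference ± SE, edgeR adjusted p = 6.1e-15) and higher in kidney than in quadriceps by 2.50 ± 0.11 (1.4e-13). The range of Sirt3 was 99.4 to 117 CPM for liver, 54.1 to 65.9 for kidney and 8.45 to 21.3 for quadriceps, with no overlap among the tissues. Its log2 differences were 2.90 ± 0.12 (liver minus quadriceps), 2.07 ± 0.11 (kidney minus quadriceps) and 0.83 ± 0.11 (liver minus kidney), with edgeR adjusted p of 1.4e-14, 2.1e-12 and 9.1e-07. Cd38 was higher in liver (15.5 to 20.8 CPM) than in kidney (5.0 to 8.32 CPM) or quadriceps (5.23 to 8.79 CPM), by 1.51 ± 0.12 and 1.41 ± 0.12. Nampt was lower in liver (56.3 to 94.5 CPM) than in kidney (107 to 164 CPM) or quadriceps (139 to 197 CPM), by -0.93 ± 0.12 and -1.14 ± 0.12, and Sirt2 was highest in quadriceps (94.9 to 115 CPM) against 55.6 to 65.2 in liver and 48.1 to 53.9 in kidney.

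Of the 9 genes, 7 differed between liver and kidney, 6 between liver and quadriceps and 3 between kidney and quadriceps at an edgeR adjusted p below 0.05. The background is wide: 72.0%, 79.4% and 80.3% of 17392 genes differed in these comparisons. Sirt4 and Sirt6 differed only between liver and kidney, by -0.29 ± 0.12 and -0.35 ± 0.15, and these were the weakest calls (adjusted p = 0.0290 and 0.0415), kept in 8 of 12 and 4 of 12 fits that left out 1 library. Sirt5 was higher in liver than in quadriceps by 0.51 ± 0.16 (adjusted p = 0.00701). The deacetylase gene Sirt1, with log2 differences of -0.08 to -0.01 between tissues, passed the test in none; the 95% interval of its liver-minus-kidney difference ran from -0.35 to 0.22.

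With age, Sirt3, Sirt5 and Sirt7 fell in liver averaged over the sexes, and Cd38 was higher in every old library than in every young one. Of the 9 genes, 3 fell and 0 rose, where 8.27% of 15158 genes fell and 19.1% were called in either direction. In females alone 1 gene, Sirt7, fell (3.73% of genes fell, 9.27% were called). In males 0 were called (0.211% of genes), with 1 at an unadjusted p below 0.05 (2960 of 15158 genes) and 0 by DESeq2 (933 genes). The median log2 fold change of the 9 genes was -0.15, against -0.02 over all genes tested. When the liver age effects of females and males were compared, 0 of 9 members passed the edgeR test, 0 had an unadjusted p below 0.05, and 0.0% of all genes were called (DESeq2 called 133 genes).

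Sirt7, the nucleolar sirtuin gene, had 57.5, 52.5 and 56.3 CPM in young female livers and 31.8, 32.1 and 47.2 in old female livers. In males it had 44.1, 62.2 and 62.0 CPM in young and 36.7, 42.9 and 46.8 in old livers. The female groups did not overlap, while 1 young male (44.1) lay within the old male range. Averaged over the sexes Sirt7 fell by 0.50 ± 0.12 on the log2 scale (edgeR adjusted p = 0.0137), and it kept an adjusted p of at most 0.05 whichever single library was left out. In females alone the fall was 0.58 ± 0.17 (adjusted p = 0.0467), and leaving out 1 library took it to between 0.104 and 0.172 in 5 of 6 cases; without old female 3 it was 0.0127. The authors' deposited table, whose fold changes are not on the scale of those fitted here, gives -0.49 with an adjusted p of 0.0201 for old over young females.

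Sirt3 had 98.9 to 104 CPM in young female, 88.9 to 99.8 in young male, 49.3 to 81.4 in old female and 71.5 to 78.9 in old male livers. Every old library lay below every young one. It fell by 0.47 ± 0.13 averaged over the sexes (edgeR adjusted p = 0.0250), and by 0.62 ± 0.19 in females, where the adjusted p of 0.0509 missed the threshold. Sirt5, the desuccinylase gene, had 8.33 to 11.6 CPM in young female and 7.56 to 12 in young male livers, against 6.48 to 7.14 and 5.49 to 8.42 in old ones. It fell by 0.47 ± 0.15 averaged over the sexes (adjusted p = 0.0409), with old females below all young females and the males overlapping. These calls stand near the threshold: leaving out 1 library moved Sirt3 to an adjusted p of up to 0.0877 and Sirt5 to up to 0.150, and each kept its call in 3 of 12 such fits. The Sirt5 call was also lost without the filter on low counts (adjusted p = 0.0666) and with the library letter in the fit (0.0744).

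**Figure D2:**
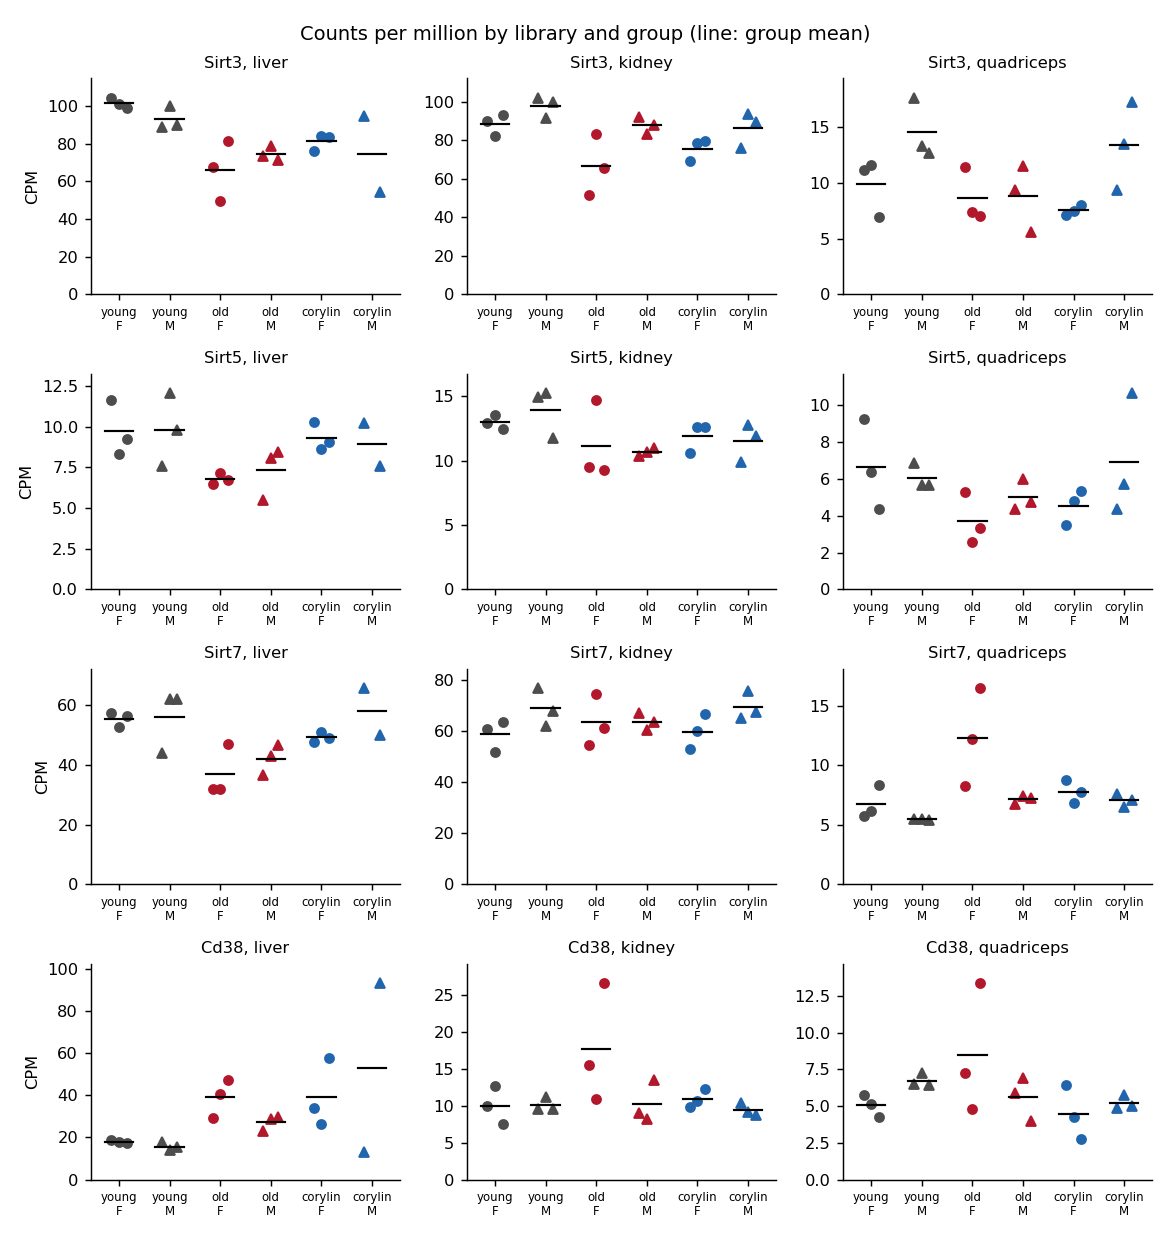
CPM of Sirt3, Sirt5, Sirt7 and Cd38 in each library of 3 tissues, by arm and sex (F circles, M triangles), with the group mean as a line. In liver Sirt3 and Sirt7 sit lower in old than in young females, and Cd38 is higher in all old livers; Sirt7 in quadriceps is highest in old females, up to 16.5 CPM, and the 2 corylin male livers differ in Cd38 (13.0 and 93.0 CPM).

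Cd38 had 17.4 to 18.6 CPM in young female and 13.9 to 17.8 in young male livers, against 29.3, 40.6 and 47.1 in old female and 23.2, 28.6 and 29.7 in old male livers. The arms did not overlap in either sex. Its log2 difference was 0.95 ± 0.34 averaged over the sexes, with an edgeR adjusted p of 0.0677 that misses the threshold. The fit takes 1 spread per gene from all 6 groups, among them corylin males, whose 2 livers had 13.0 and 93.0 CPM. No fit for this age comparison left out a corylin liver, so their part in the adjusted p was not tested. DESeq2 gave 0.0206 for the same difference, whereas edgeR without the filter on low counts gave 0.167. With the library letter in the edgeR fit the difference was smaller, at 0.65 (adjusted p = 0.131), and that letter is partly confounded with age. The summed macrophage and monocyte markers (14 genes, among them Adgre1, C1qa and Clec4f, all tested in liver) were 305 to 645 CPM in young and 1382 to 3166 CPM in old livers, and 13 of the 14 rose. T and NK cell markers ran from 6.03 to 8.41 CPM in young and from 8.08 to 36.5 in old livers, neutrophil markers from 3.86 to 8.19 and from 16.0 to 202, and adipocyte markers from 385 to 1461 and from 24.6 to 233. B and plasma cell markers, another class that can carry Cd38, ran from 50.9 to 440 CPM in young and from 143 to 530 in old livers. Their part in the differences of Cd38 and the sirtuins was not tested, and in bulk tissue fewer cells of a type and less RNA per cell cannot be told apart.

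The remaining genes did not pass in liver. Nampt had 54.6 to 84.3 CPM in young female and 73.2 to 119 in old female livers (0.45 ± 0.23, adjusted p = 0.215), and its male difference was -0.01 ± 0.23. Sirt1 (0.12 ± 0.14), Sirt2 (-0.15 ± 0.09), Sirt4 (-0.20 ± 0.15) and Sirt6 (0.07 ± 0.15) had adjusted p values from 0.227 to 0.790 averaged over the sexes. The 95% interval for Sirt1 ran from -0.15 to 0.39.

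Around these genes, those for NAD consumption and nicotinamide clearance moved in both directions in old liver, where 19.1% of all genes tested were called averaged over the sexes. Of 21 genes for NAD consumption and nicotinamide clearance, 7 rose and 3 fell averaged over the sexes: the mono-ADP-ribosyltransferase genes Parp14 (1.1 ± 0.18, adjusted p = 0.00299) and Parp10 (0.61 ± 0.13, 0.00653) and the nicotinamide methyltransferase gene Nnmt (1.11 ± 0.24, 0.00901) rose, and the aldehyde oxidase gene Aox3 fell by 1.26 ± 0.21 (0.00348). Of 18 tested genes for NAD synthesis, 1 rose and 4 fell. Acmsd, which diverts the tryptophan route away from NAD, rose by 1.49 ± 0.39 (adjusted p = 0.0191), and the mitochondrial NAD kinase gene Nadk2 (-0.60 ± 0.15), the adenylyltransferase gene Nmnat1 (-0.48 ± 0.13) and the NAD synthetase gene Nadsyn1 (-0.43 ± 0.13) were among those that fell. Of 20 partners and substrates of sirtuins, 2 rose, Ucp2 (1.98 ± 0.41) and Rela (0.25 ± 0.08), and 1 fell, the mitochondrial superoxide dismutase gene Sod2 (-0.39 ± 0.13); 3 of 20 is a smaller share than that over all genes. The list medians were 0.21, -0.20 and -0.19, beside -0.02 over all genes.

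In kidney no member passed the test for age. In females 0 of 9 were called where 10.8% of 17174 genes were, in males 0 (0.111%), and averaged over the sexes 0 (8.86%). An unadjusted p below 0.05 was reached by 2, 1 and 3 members, and by 4163, 1879 and 3591 of all genes. DESeq2 called 2 members in females and 0 in the other comparisons, beside 2338, 230 and 1897 of all genes. Old female 2 decided the counts of members: without it Sirt3 (-0.60, adjusted p = 0.00359), Cd38 (1.07, 0.00698) and Sirt5 (-0.47, 0.0490) passed in females. Over all genes, edgeR fits of this comparison with 1 library left out called 1034 to 2260, against 1863 with all libraries. Old female 2 stood apart in adipocyte markers, with 531 CPM against 48.0 and 65.3 in the other old and 49.9 to 65.8 in young female kidneys. Cd38 had 9.94, 12.7 and 7.51 CPM in young female and 15.5, 10.9 and 26.6 in old female kidneys. The groups overlap, and the log2 difference of 0.82 ± 0.27 (edgeR adjusted p = 0.0599) became 0.40 (0.273) without old female 3. The authors' deposited table gives 0.63, on its own scale of fold change, with an adjusted p of 0.0377. Macrophage and monocyte markers summed to 202 to 323 CPM in young and 910 to 1372 CPM in old female kidneys, highest in old female 3. Other immune markers were higher without overlap in the same old females: B and plasma cell markers at 716 to 1344 against 456 to 685 CPM, T and NK cell markers at 24.7 to 43.5 against 11 to 17.9, and neutrophil markers at 10.5 to 19.3 against 1.87 to 3.23. The part of these cells in the Cd38 values was not tested. In males, where the same markers ran from 169 to 224 and from 354 to 491 CPM, the Cd38 difference was 0.02 ± 0.27. The age effects of the 9 genes were not shown to differ between the sexes (0 of 9 interactions called, 0 at an unadjusted p below 0.05, 0.0932% of genes called).

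Sirt3 in kidney had 82.4 to 93.2 CPM in young females and 51.3, 83.4 and 65.7 in old females, with 1 old library among the young ones (-0.41 ± 0.14, adjusted p = 0.0737). Sirt5 had 11.7 to 15.2 CPM in young male kidneys and 10.3 to 11 in old ones, without overlap (-0.39 ± 0.17, adjusted p = 0.404), and the female groups overlapped. Sirt1 had 19 to 34.4 CPM in young and 13.8 to 31.8 in old kidneys of both sexes (-0.13 ± 0.16, adjusted p = 0.757). Sirt7 in kidney had 51.7 to 76.7 CPM in young and 54.4 to 74.2 in old mice of both sexes, and its difference averaged over the sexes was -0.00 ± 0.09 with a 95% interval from -0.18 to 0.18. Nampt, the most abundant of the 9 genes in kidney, had 187 to 247 CPM in young and 131 to 218 in old females (-0.38 ± 0.19, adjusted p = 0.226). Among the listed genes in female kidney, 10.8% of all genes were called. Of 21 genes for NAD consumption and nicotinamide clearance, 4 rose and 0 fell, with Parp9 (0.93 ± 0.14, edgeR adjusted p = 0.000476) and Parp14 (1.24 ± 0.22) at the head. Of 16 NAD-synthesis genes, the nicotinamide riboside kinase gene Nmrk1 rose (0.88 ± 0.17) and Nadk2 (-0.98 ± 0.14) and Afmid (-0.92 ± 0.25) fell. Of 19 partners and substrates, Ucp2 (0.92 ± 0.16) and Rela (0.44 ± 0.10) rose and Foxo4 (-0.40 ± 0.11) and Ppargc1a (-0.69 ± 0.20) fell.

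In quadriceps Sirt7 was the member that changed with age, and it rose. In young females it had 5.78, 6.21 and 8.35 CPM and in old females 8.26, 12.2 and 16.5; in males it had 5.44 to 5.49 CPM in young and 6.79, 7.40 and 7.31 in old mice. The male groups did not overlap, and the female groups overlapped narrowly, at 8.26 and 8.35 CPM. The log2 difference was 0.86 ± 0.21 in females (edgeR adjusted p = 0.0301; 4.5% of 14173 genes rose and 6.67% were called), 0.39 ± 0.21 in males (0.336; 0.0% of genes called, 492 genes by DESeq2) and 0.62 ± 0.15 averaged over the sexes (0.0380; 1.98% rose, 3.59% were called). Raw counts of Sirt7 were 92 to 311 a library in quadriceps, against 364 to 926 in liver. Without old female 3 the female difference was 0.60 (adjusted p = 0.145) and the mean 0.50 (0.0559). The authors' deposited table gives 0.74, on its own scale of fold change, with an adjusted p of 0.00585 for old over young females. The edgeR calls were kept in 3 of 6 and 4 of 12 fits that left out 1 library. With the library letter in the fit the female value was 0.78 (0.0768) and the mean 0.55 (0.106).

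That old female library stood apart in quadriceps. Its macrophage and monocyte markers summed to 1272 CPM against 64.0 to 136 in the other 5 old quadriceps, its neutrophil markers to 157 against 2.07 to 5.94, and its muscle fibre markers to 80779 CPM, the lowest of the tissue. The other 2 old female quadriceps, with Sirt7 at 8.26 and 12.2 CPM, had 136 and 107 CPM of macrophage markers, where young quadriceps had 35.5 to 89.0. Cd38 was 13.4 CPM in the library that stood apart and 7.27 and 4.81 in the other old females, against 4.29 to 5.78 in young females (0.74 ± 0.33, adjusted p = 0.170; 0.27 without old female 3). The part of these cells in the Sirt7 values was not tested. Leaving out that library also removes its low muscle fibre markers and its letter R, so that fit cannot separate them.

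Among the other members in quadriceps, Sirt1 in males went from 12, 14.1 and 12.7 CPM in young to 15.6, 20.4 and 18.3 in old mice, without overlap. Its log2 difference of 0.49 ± 0.13 had an edgeR adjusted p of 0.0987, and DESeq2 gave 0.0329. Sirt3 in males went from 12.7 to 17.6 CPM in young to 5.55 to 11.5 in old mice, also without overlap (-0.72 ± 0.28, adjusted p = 0.202), and Sirt5 in females from 4.35 to 9.24 down to 2.58 to 5.28 CPM (-0.83 ± 0.34, adjusted p = 0.141). Nampt was 113 to 162 CPM in young and 118 to 171 in old quadriceps (0.04 ± 0.09 averaged over the sexes). When the age effects of females and males were compared, 0 of 9 members passed, 2 had an unadjusted p below 0.05 (2845 of 14173 genes), and 0.226% of genes were called. Of the listed genes in female quadriceps, Parp14 rose (1.84 ± 0.49, adjusted p = 0.0402), Nmrk2, the muscle nicotinamide riboside kinase gene, rose (2.56 ± 0.73, 0.0495), Nmnat3 fell (-0.45 ± 0.13, 0.0451), and of the sirtuin partners and substrates Rela (0.53 ± 0.14, 0.0356) and Ucp2 (2.06 ± 0.56, 0.0426) rose. These are 1 of 19 genes for NAD consumption and nicotinamide clearance, 2 of 12 NAD-synthesis and 2 of 19 partner genes, beside 6.67% of all genes called in females. Nmrk2 was 42.3, 74.7 and 174 CPM in old and 33.4, 9.88 and 6.18 in young females, highest in the library that stood apart. In males 0 listed genes of these 3 lists passed, where 0.0% of all genes did.

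**Figure D3:**
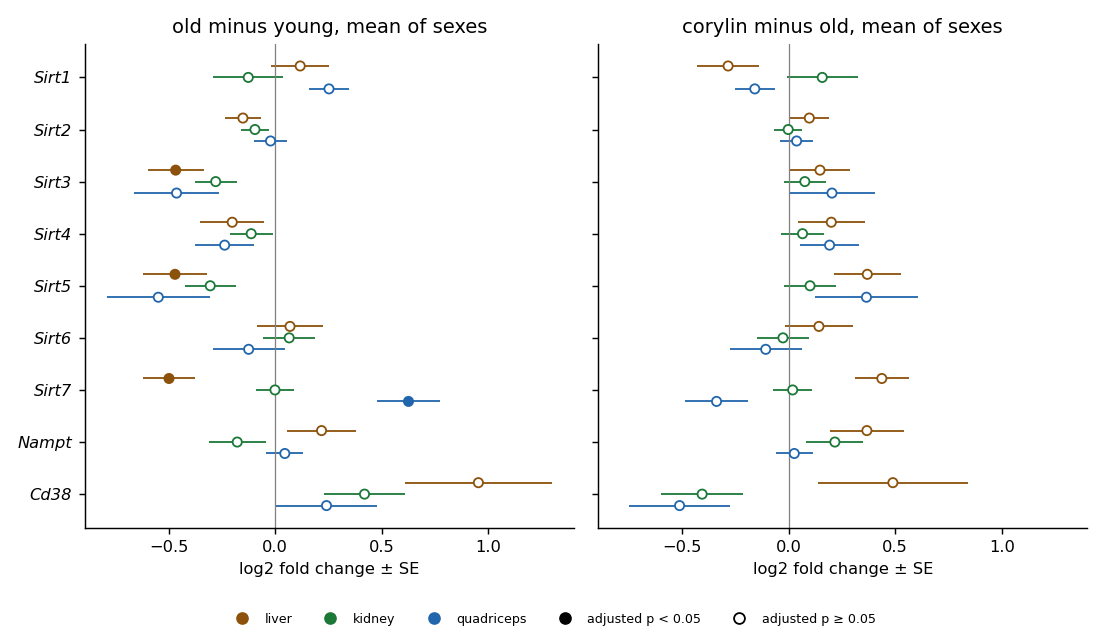
Log2 fold change ± SE (edgeR) of the 9 genes averaged over the sexes, for old minus young (left) and corylin minus old (right), in liver (brown), kidney (green) and quadriceps (blue); filled points have an adjusted p below 0.05. The filled points are Sirt3, Sirt5 and Sirt7 in liver (-0.47, -0.47 and -0.50) and Sirt7 in quadriceps (0.62), all on the left.

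The opposite directions of Sirt7 in liver and quadriceps were tested in 1 joint fit of the 36 young and old libraries, a test added after those directions had been seen. The age effect in liver minus that in quadriceps was -1.12 ± 0.19 (log2, edgeR adjusted p = 0.000468 over 18248 genes). The difference stayed between -1.22 and -0.94 whichever library was left out, and it was -1.10 (0.000592) with the animal as a block, since each of the 12 mice gave all 3 tissues. Sirt7 was the 1 member called of 9 in this comparison, in which 1.78% of genes had a lower and 5.0% a different age effect. For liver minus kidney (-0.49 ± 0.18, adjusted p = 0.145; 3.21% of genes called) and kidney minus quadriceps (-0.62 ± 0.19, 0.122; 0.575% of genes called) 0 members passed, with 1 member each at an unadjusted p below 0.05, Sirt7. Sirt3 and Sirt5, by contrast, had age effects in liver minus quadriceps of 0.00 ± 0.21 and 0.08 ± 0.25: their point estimates were negative in all 3 tissues.

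Against old mice, no member passed the test for corylin in any tissue. Over 9 comparisons (3 tissues, each in females, males and averaged) 0 of 81 tests passed the edgeR threshold, 13 had an unadjusted p below 0.05, and DESeq2 called 1, in liver averaged over the sexes. The edgeR background was small too: 0.152% of genes in female, 0.0594% in male and 1.07% in mean liver, 0.0582%, 0.0699% and 0.0641% in kidney, and 0.0%, 0.0% and 0.0% in quadriceps. DESeq2 called 568, 129 and 730 genes in liver, 200, 78 and 109 in kidney, and 441, 68 and 3 in quadriceps. Over all genes, 2389, 1620 and 2891 of 15158 in liver had an unadjusted p below 0.05. In kidney these were 2055, 1245 and 1653 of 17174, and in quadriceps 2467, 1380 and 1131 of 14173. The authors' deposited table gives none of the 9 genes an adjusted p below 0.05 for corylin over old mice in either sex of any tissue. The corylin effects of females and males differed for 0 of 9 members in each tissue (0.0%, 0.00582% and 0.0% of genes called in liver, kidney and quadriceps), with 1, 0 and 1 members at an unadjusted p below 0.05 (1033, 1708 and 2790 of all genes).

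The corylin value nearest to the threshold was that of Sirt7 in liver. It had 47.8, 51.1 and 49.2 CPM in corylin females against 31.8, 32.1 and 47.2 in old females, and 65.7 and 50.2 in corylin males against 36.7, 42.9 and 46.8 in old males. Every corylin library lay above every old one, within the range of young livers (44.1 to 62.2) in 4 of 5 libraries. The log2 difference was 0.44 ± 0.13 averaged over the sexes (95% interval 0.19 to 0.69, edgeR adjusted p = 0.106). It was 0.50 (0.0271) without old female 3, and DESeq2 gave 0.42 (0.0459). In edgeR it did not pass with RLE size factors (0.105), without the filter (0.146), with a replicate block (0.108) or with the library letter in the fit (0.0912). The age and corylin comparisons share the old libraries, so the age value of -0.50 and the corylin value of 0.44 are not independent. In quadriceps the corylin value of Sirt7 was negative: 8.76, 6.89 and 7.74 CPM in corylin females against 8.26, 12.2 and 16.5 in old females (-0.66 ± 0.21, adjusted p = 0.133; -0.39 without old female 3). Cd38 there was 6.41, 4.23 and 2.73 against 7.27, 4.81 and 13.4 CPM (-0.92 ± 0.33, adjusted p = 0.178), at -0.44 (0.789) without old female 3 and -1.2 (0.0397) without old female 2.

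Sirt5 in liver had 8.62 to 10.3 CPM in corylin females, above all old females, and 10.2 and 7.59 in corylin males (0.37 ± 0.16 averaged over the sexes, adjusted p = 0.224). Sirt3 had 76.2 to 84.1 CPM in corylin females and 94.7 and 54.1 in corylin males, on both sides of the old range (0.15 ± 0.14). Sirt1 in corylin females was 11.8, 12.3 and 14.2 CPM, below all old females at 16.8 to 20.3 (-0.53 ± 0.19, adjusted p = 0.201), whereas corylin males had 18.7 and 12.6. None of these 3 genes passed the test.

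The authors' deposited table also compares groups not fitted here. For corylin over young males in liver it gives 1.43 for Cd38 (adjusted p = 0.0114) and 0.71 for Nampt (0.0188). These are 2 of 9 genes. In its other comparisons of corylin with young mice, or of females with males on corylin, 0 of 9 passed in each tissue. The Cd38 value rests on 1 library: the 2 corylin male livers had 13.0 and 93.0 CPM, below and above the young males at 13.9 to 17.8. For old females over old males the authors' deposited table gives 0.70 for Nampt in liver (0.0119), 0.63 for Cd38 (0.0349) and -0.36 for Sirt3 (0.0399) in kidney, and 0.67 for Sirt7 (0.00927) and -0.30 for Sirt2 (0.0255) in quadriceps. These are 1, 2 and 2 of 9 genes. Old female 3 held the highest Cd38 in kidney (26.6 CPM) and the highest Sirt7 in quadriceps (16.5 CPM), with the highest macrophage markers of both tissues. The share over all genes in the authors' comparisons was not counted here.

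The 2 corylin male livers differed widely in Cd38, with 13.0 CPM in replicate 2 and 93.0 in replicate 3, the lowest and the highest of all 17 livers. The log2 difference from old males was 0.97 ± 0.52 (adjusted p = 0.522) with both, -1.07 (adjusted p = 0.230) without replicate 3 and 1.69 (0.00624) without replicate 2. Each of the last 2 fits leaves 1 corylin male liver, whose spread is borrowed from the remaining groups, so their p-values hold no spread within that arm. The same libraries had macrophage and monocyte sums of 516 and 6451 CPM, neutrophil sums of 6.38 and 161 CPM and T and NK cell sums of 14.1 and 81.3 CPM. In female livers on corylin Cd38 was 26.4 to 57.6 CPM, overlapping old females, with macrophage sums of 2042 to 2541 against 1916 to 3166 CPM. In kidney, Cd38 in corylin females was 9.82 to 12.3 CPM against 10.9 to 26.6 in old females (-0.69 ± 0.27, adjusted p = 0.318; -0.26 without old female 3), and the macrophage sums were 419 to 634 against 910 to 1372 CPM. The part of these cells in Cd38 was not tested.

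**Figure D4:**
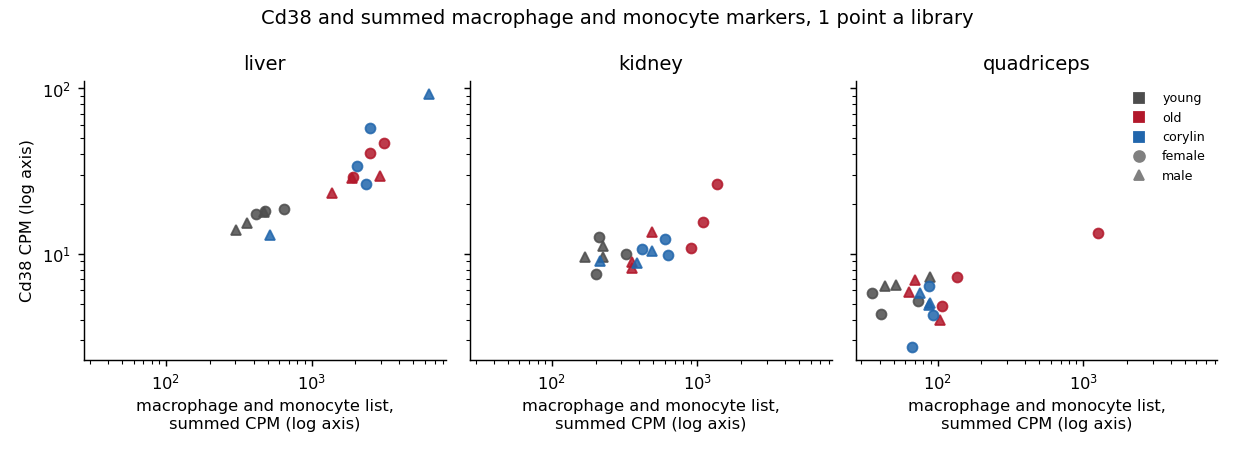
Cd38 CPM against the summed CPM of 14 macrophage and monocyte markers, both on log axes, 1 point a library, in liver, kidney and quadriceps; colours are arms, circles females and triangles males. The library with the highest marker sum of each tissue also has the highest Cd38 there (6451 and 93.0 CPM in liver, 1372 and 26.6 in kidney, 1272 and 13.4 in quadriceps), but an old female kidney with a sum of 910 has 10.9 CPM of Cd38, within the young female range of 7.51 to 12.7.

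Nampt was 82.3 and 124 CPM in corylin male livers against 57.7, 43.2 and 68.3 in old males. The groups did not overlap, and the log2 difference was 0.87 ± 0.26 (95% interval 0.37 to 1.37), which did not pass (edgeR adjusted p = 0.289); it was 0.54 (0.482) without corylin male 3 and 1.05 (0.0320) without corylin male 2, where again the spread of the 1 library left is borrowed. In females Nampt was 80.7 to 101 CPM on corylin and 73.2 to 119 in old livers. Genes of the circadian clock, which is known to drive Nampt, differed between the same male groups. Of 18 clock genes, 1 rose and 1 fell in male liver: Per3 was 1.83 to 3.88 CPM in old and 40.6 and 69.6 in corylin males (4.32 ± 0.51, adjusted p = 0.00371), and Arntl, the gene of the activator BMAL1, was 16.3 to 21.3 and 1.63 and 2.75 CPM (-3.09 ± 0.48, 0.0259). Young male livers stood between, with 7.25 to 16.1 CPM of Per3 and 7.05 to 12.7 of Arntl. The labels give no time of collection, and its part in these values was not tested.

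In male kidney 3 of 18 clock genes rose and 1 fell with corylin, and Nampt did not pass: Per3 (2.13 ± 0.33), the D-box factor genes Dbp (3.67 ± 0.55) and Nfil3 (-2.02 ± 0.27) and the repressor gene Bhlhe41 (1.69 ± 0.29) had adjusted p values of 0.0132, 0.0132, 0.00673 and 0.0355. Nampt had 211, 216 and 219 CPM in corylin and 176, 201 and 228 in old male kidneys (0.09 ± 0.19). In male quadriceps, where 0 clock genes passed, Per3 was 32.3 to 36.6 against 12.5 to 17.3 CPM and Nampt 134 to 148 against 124 to 143 CPM. In female liver and kidney 0 of 18 clock genes passed for corylin, and Nfil3 in female liver was at -1.94 ± 0.41 (adjusted p = 0.0699) beside -2.32 ± 0.48 (0.102) in male liver. The corylin effects of females and males differed for 0 of 18 clock genes in each tissue. Averaged over the sexes, Per3 (2.58 ± 0.33) and Tef (1.14 ± 0.23) rose and Nfil3 (-2.13 ± 0.31) and Arntl (-1.75 ± 0.32) fell in liver, with adjusted p of 0.00962, 0.0307, 0.0145 and 0.0240; in kidney Per3 rose (1.30 ± 0.22, 0.0357) and Nfil3 fell (-1.43 ± 0.19, 0.00474).

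**Figure D5:**
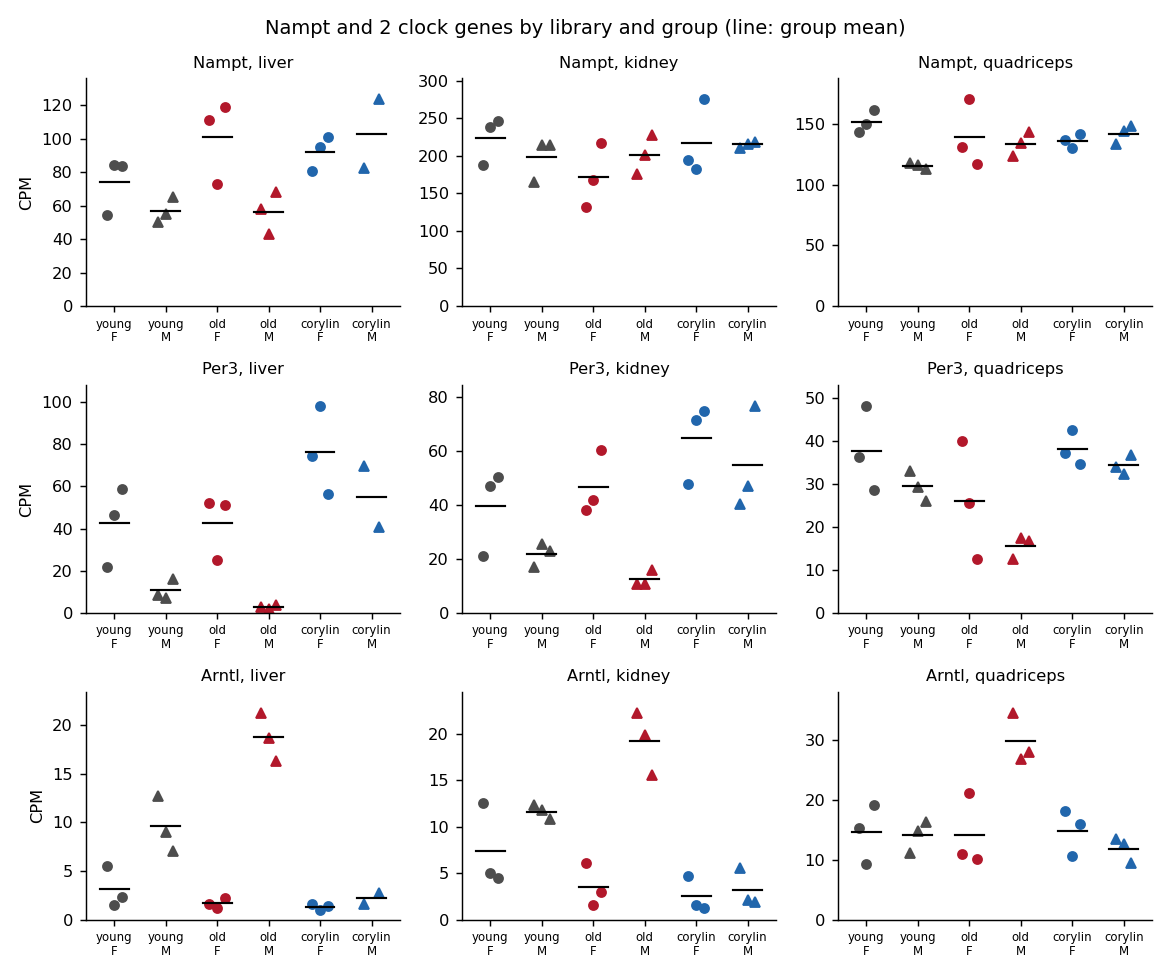
Nampt, Per3 and Arntl CPM in each library of liver, kidney and quadriceps, by arm and sex (F circles, M triangles; line: group mean). Old males have the lowest Per3 and the highest Arntl in liver (1.83 to 3.88 and 16.3 to 21.3 CPM), while Nampt overlaps between old and corylin males in kidney.

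In all 9 corylin comparisons 0 genes of NAD synthesis and 0 of NAD consumption and nicotinamide clearance passed. Nnmt in liver, named here after its values were seen, was at -1.05 ± 0.26 averaged over the sexes (edgeR adjusted p = 0.0656); it rose with age, in a comparison that shares the old libraries. The partners and substrates of sirtuins had 0 calls as well.

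Sirt2, the cytosolic tubulin deacetylase gene, Sirt4, a mitochondrial sirtuin gene, and Sirt6, a histone deacetylase gene, passed no edgeR test of age, corylin or sex in young mice within any tissue. Sirt2 had medians of 55.0, 49.2 and 50.3 CPM in young, old and corylin livers, 75.5, 71.7 and 72.2 in kidneys, and 87.8, 90.7 and 87.4 in quadriceps. Old females lay below young females without overlap in liver (48.1, 52.7 and 50.3 against 54.1, 56.9 and 56.0 CPM) and in kidney (63.2, 71.3 and 71.2 against 74.9, 77.2 and 74.7 CPM), with log2 differences of -0.14 ± 0.12 and -0.14 ± 0.09 that did not pass (adjusted p = 0.460 and 0.381). Sirt4 ran from 6.15 to 12.4 CPM in all livers, from 15.9 to 23.9 in kidneys and from 4.88 to 11 in quadriceps, and Sirt6 from 3.06 to 5.84, 7.14 to 12 and 2.08 to 5.6. With both sexes pooled, the ranges of the 3 arms overlapped for Sirt4 and Sirt6 in each tissue.

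Between young females and males 0 of the 27 tests of members passed (1.28% of genes called in liver, 6.25% in kidney and 1.2% in quadriceps), 2 had an unadjusted p below 0.05, and DESeq2 called these 2. Both were in quadriceps, where 2505 of 14173 genes had an unadjusted p below 0.05 and DESeq2 called 652. Sirt1 was 16.8 to 20.2 CPM in females and 12 to 14.1 in males (0.52 ± 0.13, edgeR adjusted p = 0.0640; DESeq2 0.0138), and Nampt was 144 to 162 and 113 to 118 CPM (0.40 ± 0.12, edgeR 0.118; DESeq2 0.0340). Neither pair of groups overlapped, and the authors' deposited table gives adjusted p of 0.0127 and 0.0316 for the same differences. Its unadjusted p of 0.000281 and 0.00119 nearly equal those of DESeq2 here, 0.00029 and 0.00121. The 2 sources rest on the same libraries and are not separate support. In young kidney, where no member passed, 3 of 16 NAD-synthesis genes (Ido2 at -1.28 ± 0.20, Qprt at -0.69 ± 0.14 and Pnp at -0.69 ± 0.19) were lower in females than in males. So were 3 of 21 genes for NAD consumption and nicotinamide clearance (Nt5e at -1.26 ± 0.20, Parp10 at -0.87 ± 0.20 and Parp3 at -0.56 ± 0.14).

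Genes with the most similar profiles were taken as those with the highest Pearson r of log2 CPM over the libraries of a tissue, which share arms, sexes and depth, so these values are descriptions. Over 17 livers Cd38 lay nearest to Gmip (r = 0.967), Ptprm (0.965) and Fam111a (0.965). Sirt7 lay nearest to Emc9 (0.931), Spc24 (0.894) and Selenbp1 (0.889), and Sirt3 to Abcc6 (0.959), Atad3a (0.944) and Cyp2c37 (0.938). Sirt5 lay nearest to Slc25a10, Gins1 and Mettl22 (0.820 to 0.840), and Nampt to Igsf8 (0.883) and Vamp3 (0.881). Over 18 quadriceps Sirt7 lay nearest to Senp1 (0.930), Tmem179b (0.923) and Sh3bp2 (0.920), sharing none of these with liver, and Nampt to Cdyl, Wdr33 and Zfp280d (0.849 to 0.856) and Cd38 to Sft2d1, Fbn1 and C1qtnf6 (0.876 to 0.901). Over 18 kidneys Nampt lay nearest to Esrrb, Foxo3 and Kcnt1 (0.848 to 0.868) and Cd38 to Dck, Sp100 and Klhl6 (0.841 to 0.862).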

How the data were processed

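RNA was extracted with TRIzol and made into stranded mRNA libraries, read as 150 bp pairs, per the labels' protocols. The submitters' processing notes name fastp 0.20.0, FastQC 0.11.9, HISAT2 2.1.0, featureCounts 2.0.1 and the build GRCm38; annotation release and strand setting: not given in the sources used here. The deposited tables hold raw counts per gene and TPM values made by the authors. They also hold comparisons by the authors, each with a log2 fold change, a p-value and its adjusted form, from a tool not named in those sources. The authors' fold changes are not on the scale of those fitted here. For Cd38 in liver, corylin over old males, theirs is 0.044 with a p of 0.0681. DESeq2 as run here gave 0.96 with a p of 0.0675. The sizes are therefore not to be set against each other. The p-values lay close to each other and rest on the same libraries, so the authors' adjusted p values are not support separate from DESeq2. The counts were tested as deposited, TPM only orders genes within a tissue, and the authors' comparisons are quoted where named. Per-sample columns that matched no sample numbered 0.

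Genes that passed filterByExpr (minimum count 10, minimum total 15) entered a quasi-likelihood F test in edgeR 4.0.16 (R 4.3.3; robust, TMM), with 1 model for each tissue across its 6 groups. P-values were adjusted by Benjamini-Hochberg across every tested gene, with a threshold of 0.05. Sex means weight both sexes equally, SE is the log2 fold change over the root of F, 95% intervals are normal ones from that SE, and CPM uses TMM library sizes. Young tissues shared 1 fit of 18 libraries. The fits were checked on simulated data. Alternatives were DESeq2 1.42.0, RLE size factors, no filter, a replicate block, the library letter as a term, and leaving out each library. The members and lists were chosen with earlier results of these data known. All 9 members are named; list genes are named, at most 4 per list and comparison, by smallest p among those called, and like patterns (3 genes each) are given for Nampt, Cd38 and members called in that tissue; 1 such gene for Nampt in liver is not reported here. No 2 libraries of the same group were duplicates. Libraries of different groups were not compared in this way. Libraries of a group carry different animal names, and p-values measure the spread between them. That spread is 1 value per gene shared by all groups of a fit, also by groups outside the comparison. In fits that leave 1 library in a group, its spread is borrowed from the remaining groups.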

Additional observations from a re-analysis of the deposited data

Results flagged for a closer look

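The age effect of Sirt7 differed between tissues: in liver minus quadriceps it was -1.12 on the log2 scale (edgeR adjusted p = 0.000468), a fall in liver (-0.50 ± 0.12) against a rise in quadriceps (0.62 ± 0.15). It draws attention because 1 gene moved in opposite directions in tissues of the same 12 animals and the difference itself was tested. The test was added after the directions had been seen. In liver every old library lay below all young ones but 1, a young male with 44.1 CPM, and without the old female quadriceps rich in macrophage markers the difference was -0.94.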

How the results depend on the processing

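Counts of the 9 genes called kept within 1.5 times of the edgeR count in 25 of 30 comparisons with DESeq2, 33 of 33 with RLE size factors, 32 of 33 without the filter and 24 of 27 with the library letter. No call in either fit counts as kept, and this holds for most comparisons. Within tissues, edgeR called a member only for age in liver and quadriceps, each in females and averaged over the sexes. The margin of 1.5 times also hides 1 lost call: for age over the sexes in liver, Sirt5 did not pass without the filter or with the letter. DESeq2 called 2 in place of 1 for age in female liver, 1 in place of 0 for corylin in liver averaged over the sexes, 2 in place of 0 for age in female kidney, 1 in place of 0 for age in male quadriceps, and 2 in place of 0 for sex in young quadriceps. Over all genes it called 2405 in place of 1405, 730 in place of 162, 2338 in place of 1863, 492 in place of 0 and 652 in place of 170, in the same order. Without the filter 0 were called for age in female liver. With the letter 1 was called for age in female kidney (Nampt, -0.52, adjusted p = 0.0400), and 0 for age in quadriceps in females and over the sexes. The cause was not tested.

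Leaving out 1 library gave 0 to 2 calls for age in female liver and 1 to 3 over the sexes in liver. It gave 0 to 3 in female kidney and over the sexes in kidney, and 0 to 2 in female quadriceps and over the sexes there. Over all genes, in the same order, these fits called 256 to 1531, 1700 to 2861, 1034 to 2260, 1097 to 2229, 18 to 2589 and 36 to 2462. For corylin, leaving out 1 library gave 0 to 1 in female quadriceps, beside 0 to 1107 over all genes. In liver, some corylin fits that involve males leave 1 corylin male liver, so no count of members is given for them. For age between tissues, leaving out 1 library gave 1 to 2 (liver minus quadriceps) and 0 to 1 (kidney minus quadriceps). Over all genes these fits called 677 to 1467 and 60 to 501. Cd38 changed sign with the corylin male livers: its log2 difference ran from -1.07 to 1.69 in males, from -0.53 to 0.84 over the sexes and from -1.70 to 1.08 for females minus males.

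Same-numbered libraries were not shown to be paired: correlations of their deviations were above 0.1 in 15 of 40 pairs in liver, 13 of 45 in kidney and 18 of 45 in quadriceps. Between old or corylin libraries numbered 3, which carry R, they ran from 0.152 to 0.524 in liver. With young libraries numbered 3 they ran from -0.0586 to 0.0852 there. Among the R libraries they ran from -0.00531 to 0.190 in kidney and from -0.128 to 0.382 in quadriceps. With the replicate number as a block, the count of members called stayed within 1.5 times in 27 of 27 comparisons (3 for age over the sexes in liver), and with the animal as a block in 6 of 6. No call in either fit again counts as kept. Over all genes, age in female quadriceps gave 945 calls, 1597 by DESeq2, 402 without the filter, 113 with the letter and 18 to 2589 with 1 library left out. Age over the sexes in liver gave 2900 calls, and 1700 to 3479 over all these settings; corylin over the sexes in liver gave 162 calls, 730 by DESeq2 and 30 to 1582 with 1 library left out. Depth limits the low genes, with 37 to 155 raw counts of Sirt5 in quadriceps libraries.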
